A study of Mus musculus with 7 samples.

Results

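The 33 genes described here encode proteins of platelets and of megakaryocytes, the marrow and fetal liver cells that shed platelets. They are 33 of the 22680 rows of the deposited expression table, picked by gene symbol: platelet adhesion receptors, receptors for soluble agonists, granule proteins, thromboxane enzymes, and cytoskeletal and signalling proteins. The choice rests on the known function of each gene and uses no expression value, but it was made with earlier results on the genotypes in these libraries known, so counts over the list describe it and are not independent evidence of a direction. The RNA came from livers of C57BL/6 fetuses at 13.5 d.p.c. and was sequenced as 7 libraries: 3 wild-type LSK libraries, 3 Uhrf1-/- LSK libraries and 1 wild-type LK library. The LSK gate (lineage-negative, Sca-1+, c-Kit+) takes in blood stem cells with the earliest multipotent progenitors. The LK gate, c-Kit+ but Sca-1-, takes in more committed myeloid and erythroid progenitors. Uhrf1 encodes a protein that recruits the maintenance DNA methyltransferase to newly replicated DNA, and the way it was deleted, and in which cells, was not stated in the labels.

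Megakaryocytes share a progenitor with red cells, and a branch of stem cells is known to carry platelet transcripts already. On platelets, the GPIb-IX-V complex catches von Willebrand factor, the integrin of CD41 and beta3 binds fibrinogen, and receptors for thrombin, ADP, ATP and thromboxane respond to soluble signals. Granules then release stored chemokines and adhesive proteins. The transcription factors Gata1, Gfi1b, Nfe2, Fli1 and Runx1 act on many of these genes.

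Levels are given in FPKM, fragments scaled to transcript length and library size, which allows genes of different length to be compared. Differences are of log2(FPKM + 1), so changes of genes near 0 come out too small. A gene is called where its limma p-value, adjusted over all 10608 genes that averaged 1 FPKM or more in the LSK libraries, was under 0.05. The libraries carry replicate numbers 1 to 3 in both genotypes, and a second fit with this number as a block is named as blocked. Of the 33 genes, 22 reached the minimum and 11 did not; the lowest mean above it was 1.12 FPKM and the highest below it 0.753 FPKM. Gp6, the collagen receptor, and Cd226, an adhesion receptor shared with lymphocytes, were listed at 0 in all 7 libraries.

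Uhrf1 itself read 63.0, 66.8 and 112.8 FPKM with wild-type genotype, in order of replicate number as all such triplets below, and 10.2, 8.78 and 18.6 FPKM with Uhrf1-/- genotype, so it followed the genotype labels (log2 difference -2.62, adjusted p = 0.018). All 4 LSK markers examined were detected, and Ly6a, the gene of Sca-1, was 56.8, 34.3 and 26.4 FPKM with wild-type and 84.6, 96.4 and 36.9 FPKM with Uhrf1-/- genotype, and 0.321 FPKM in the LK library. The other LSK markers were lower in every Uhrf1-/- library than in any wild-type one: Kit at 24.4 to 27.9 against 29.0 to 56.6 FPKM, Cd34 at 134.2 to 162.2 against 193.6 to 361.0 FPKM, and Flt3 at 10.6 to 29.1 against 49.8 to 101.9 FPKM. Of the 4, limma called Flt3 alone, and with the block only (adjusted p = 0.175, blocked 0.00044). Replicate 3 differed from the others in handling-responsive genes: Fos, Junb, Jun, Egr1 and Ier2 summed to 1014.3 to 1178.4 FPKM in replicates 1 and 2 of both genotypes, to 66.2 and 142.0 FPKM in replicate 3 and to 40.3 FPKM in the LK library. The estimated read totals were 16808501 to 25803042 per library. Nothing in the sources says that the libraries came from separate animals, so a p-value here speaks only of how much these libraries vary.

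Several genes of platelet surface proteins were higher in Uhrf1-/- than in wild-type LSK cells. Itga2b, Treml1 and Tmem40 were called higher, 3 of 22 tested members where 0.113% of all tested genes were called higher. In the blocked fit Gp5, Gp9 and F2rl2 joined them, 6 of 22 where 1.23% of all genes were called higher. Gp5 and F2rl2 averaged 0.843 and 0.599 FPKM in wild type. They reached the minimum of 1 FPKM through the Uhrf1-/- libraries, at 7.44 and 2.80 FPKM, so their place among the 22 depends on the group where they are high. On FPKM no member was called lower by limma, where 0.0566% of all genes were in the first fit and 0.830% in the blocked one. At an unadjusted p under 0.05, 8 members were higher and 0 lower without the block, and 10 higher and 1 lower with it. Over all 10608 tested genes, 591 had such a p in either direction without the block and 1278 with it. On FPKM, all Uhrf1-/- values lay above all wild-type values for 9 of the 22 members, as for 4.61% of all tested genes. The 9 were Gp5, Gp9, Itga2b, Treml1, F2r, F2rl2, P2rx1, Fermt3 and Tmem40. Of the 22, 0 were separate in the other direction, where 6.16% of all genes were. Among members under the minimum, Itgb3 was separate upward and P2ry12 downward. On the deposited count values scaled to equal library totals, the ranges of P2rx1 and Fermt3 overlapped. Summed FPKM was 570509 in wild-type replicate 2 and 851271 to 1128572 in the other libraries. Of 5 mast cell markers, Cpa3, Mcpt8 and Ms4a2 were higher in every Uhrf1-/- LSK library than in any wild-type one. Cma1 and Tpsb2 were at or near 0 in the LSK libraries. Cpa3 alone reached the minimum and was called, and the part of mast cell transcripts was not tested. The median log2 difference was 0.52 over the 22 members and -0.03 over all tested genes. By replicate number the member median was 0.49, 0.09 and 0.77, so it was small at number 2, and that of all tested genes was -0.01, -0.05 and -0.05. These libraries are bulk samples, in which more cells of a kind and more RNA per cell cannot be told apart.

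**Figure D1:**
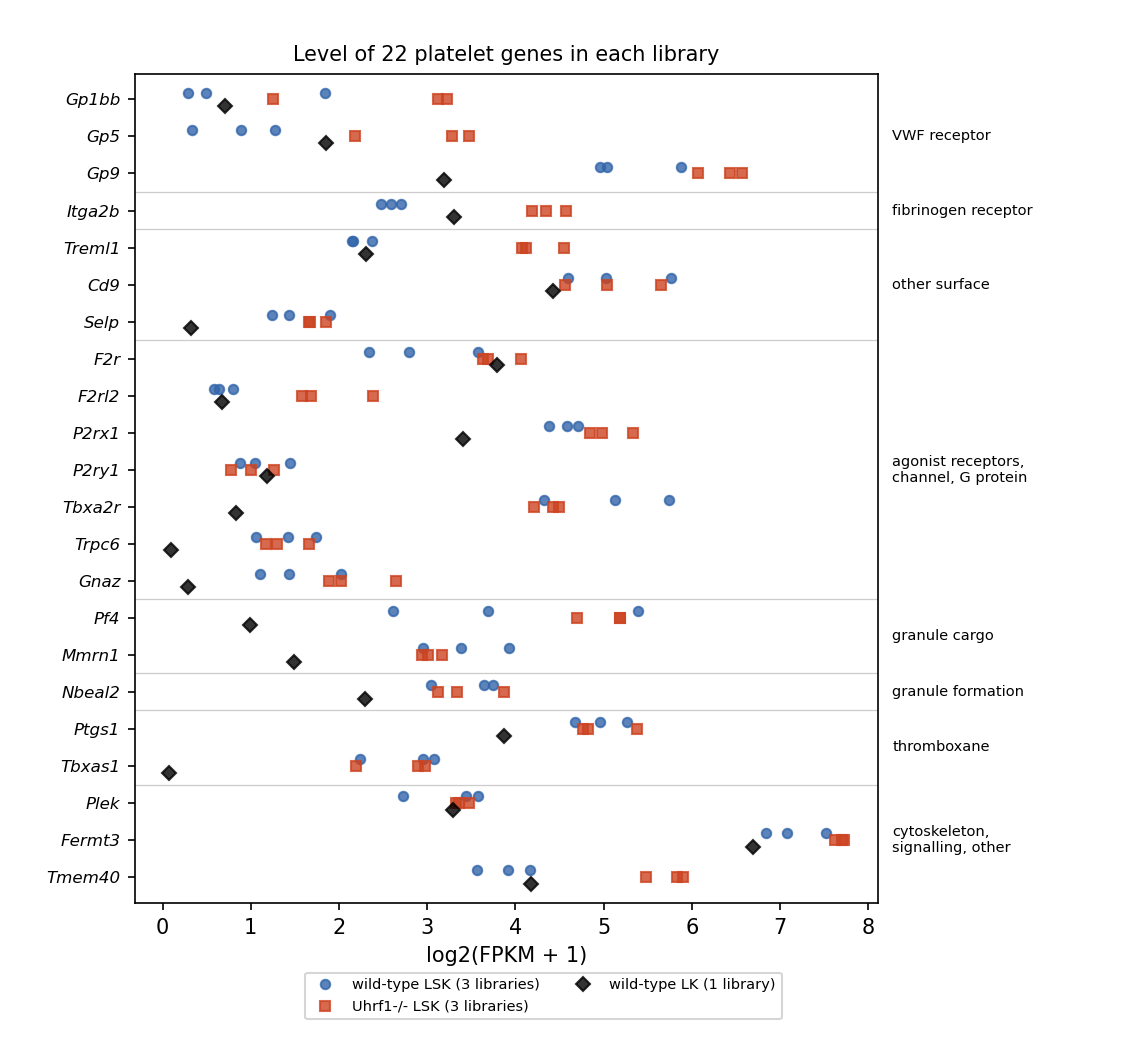
Level of the 22 tested platelet genes in every library, as log2(FPKM + 1) on the horizontal axis, with 1 point per library and the genes grouped by role. The red squares (Uhrf1-/-) lie to the right of all blue circles (wild-type LSK) for Itga2b, Treml1, Tmem40, Gp5, Gp9 and F2rl2, and the black diamond (LK) is the lowest point for 13 of the 22 genes.

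The receptor for von Willebrand factor is built from the products of Gp1ba, Gp1bb, Gp9 and Gp5. Gp9 (Entrez 54368, chr6:87776131-87779786; all gene positions are on GRCm38), the small subunit needed for surface display of the complex, was the highest of the 4 in every library. Its values were 57.7, 31.8 and 30.1 FPKM across wild-type LSK libraries, against 93.6, 85.6 and 66.3 FPKM across the Uhrf1-/- ones. The Uhrf1-/- libraries were all above the wild-type ones, with means of 39.8 ± 15.5 and 81.8 ± 14.0 FPKM (SD, n = 3 each; log2 difference 1.07, SE 0.31, limma adjusted p = 0.344, blocked 0.026).

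Gp5 (Entrez 14729, chr16:30307685-30310781), the subunit that thrombin cleaves, was low in wild-type LSK cells, at 0.851, 1.42 and 0.257 FPKM. It stood at 10.1, 8.72 and 3.53 FPKM in the Uhrf1-/- replicates, with no overlap and with replicate 3 the lowest in both genotypes. The ratio of the means was 8.83, the highest among the tested members (log2 difference 2.15, SE 0.38, limma adjusted p = 0.063, blocked 4.9e-05). With the deposited count values, scaled to equal library totals, in place of FPKM, Gp5 was also called without the block (adjusted p = 0.0417), whereas Gp9 was not called with it (blocked adjusted p = 0.119).

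Gp1bb, the beta chain of GPIb, stood at 2.58, 0.221 and 0.406 FPKM across wild-type LSK libraries, against 7.74, 8.34 and 1.38 FPKM across the Uhrf1-/- ones. The ranges overlapped, because Uhrf1-/- replicate 3 was below wild-type replicate 1 (log2 difference 1.66, SE 0.62, limma adjusted p = 0.771, blocked 0.081). Gp1bb was called higher in the blocked fit of the count values (adjusted p = 0.00899). It was also called in the blocked FPKM fit without pair 1 (2.2e-06) or pair 3 (1.3e-07), but not without pair 2 (0.28). With a pair left out, the blocked fit has almost no residual freedom, and its p-values rest mainly on the variance limma borrows from all genes. They are not stronger evidence than the fit of all LSK libraries. Exons of Gp1bb overlap those of Sept5 on the same strand, so reads of these genes may not be separable. Gp1ba, the chain that carries the binding site for von Willebrand factor, stayed below the minimum, with 0.216 to 1.03 FPKM in wild-type and 0.563 to 1.39 FPKM in Uhrf1-/- LSK cells. The 4 subunit genes of this receptor were thus detected at levels far apart, from 0.889 FPKM for Gp1ba to 81.8 FPKM for Gp9 as means of the Uhrf1-/- libraries.

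Itga2b (Entrez 16399, chr11:102453297-102469883) encodes CD41, the alpha chain of the fibrinogen receptor and an early surface marker of the megakaryocyte lineage and of embryonic blood progenitors. It stood at 4.58, 5.52 and 5.03 FPKM across wild-type LSK libraries, against 22.9, 17.3 and 19.4 FPKM across the Uhrf1-/- ones, with a spread within each genotype that was small beside the gap between them. The log2 difference was 1.78 (SE 0.25, limma adjusted p = 0.027, blocked 0.00029). Its partner Itgb3, the beta chain, was below the minimum and was not tested. Itgb3 stood at 0.660, 0.214 and 0.137 FPKM across wild-type LSK libraries, against 0.881, 0.843 and 0.917 FPKM across the Uhrf1-/- ones, all above the wild-type values. On the count values, where it reached the minimum, Itgb3 was not called (log2 difference 1.17, adjusted p = 0.565, blocked 0.101).

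Treml1 (Entrez 71326, chr17:48359916-48367176) encodes TLT-1, a receptor stored in platelet granules and brought to the surface on activation. Its level was 4.19, 3.43 and 3.45 FPKM across wild-type LSK libraries, against 22.5, 15.8 and 16.4 FPKM across the Uhrf1-/- ones (log2 difference 2.02, SE 0.26, limma adjusted p = 0.018, blocked 6.9e-05). The difference was nearly the same at each replicate number, 2.18, 1.92 and 1.97 on the log2 scale. Tmem40 (Entrez 94346, chr6:115729131-115762466), a membrane protein gene found in platelet expression profiles, stood at 16.9, 10.8 and 14.1 FPKM across wild-type LSK libraries, against 55.9, 58.9 and 43.6 FPKM across the Uhrf1-/- ones, again without overlap (log2 difference 1.86, SE 0.27, limma adjusted p = 0.027, blocked 0.00021). The calls of Itga2b, Treml1 and Tmem40 without the block were lost when any 1 of the 6 LSK libraries was left out (adjusted p from 0.057 to 0.13), while their log2 differences stayed between 1.68 and 2.11. In the blocked fit without pair 2, Gp5, Itga2b and Treml1 were called (adjusted p = 0.035, 0.035 and 0.032), and Tmem40, Gp9 and F2rl2 were not (0.052, 0.27 and 0.28). Without pair 3, Gp9 was not called (adjusted p = 0.21).

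The other surface genes were not called in either fit. Cd9, a tetraspanin of platelets and many other cells, stood at 31.5, 53.2 and 23.1 FPKM across wild-type LSK libraries, against 31.8, 49.2 and 22.6 FPKM across the Uhrf1-/- ones. Its values ran in the same order over the replicate numbers in both genotypes, and the difference at each number was between -0.11 and 0.01 on the log2 scale. Selp, the gene of P-selectin, which sits in granule membranes of platelets and endothelium, was between 1.36 and 2.74 FPKM in all 6 LSK libraries. Clec1b, the receptor for podoplanin, did not exceed 0.424 FPKM in any library.

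**Figure D2:**
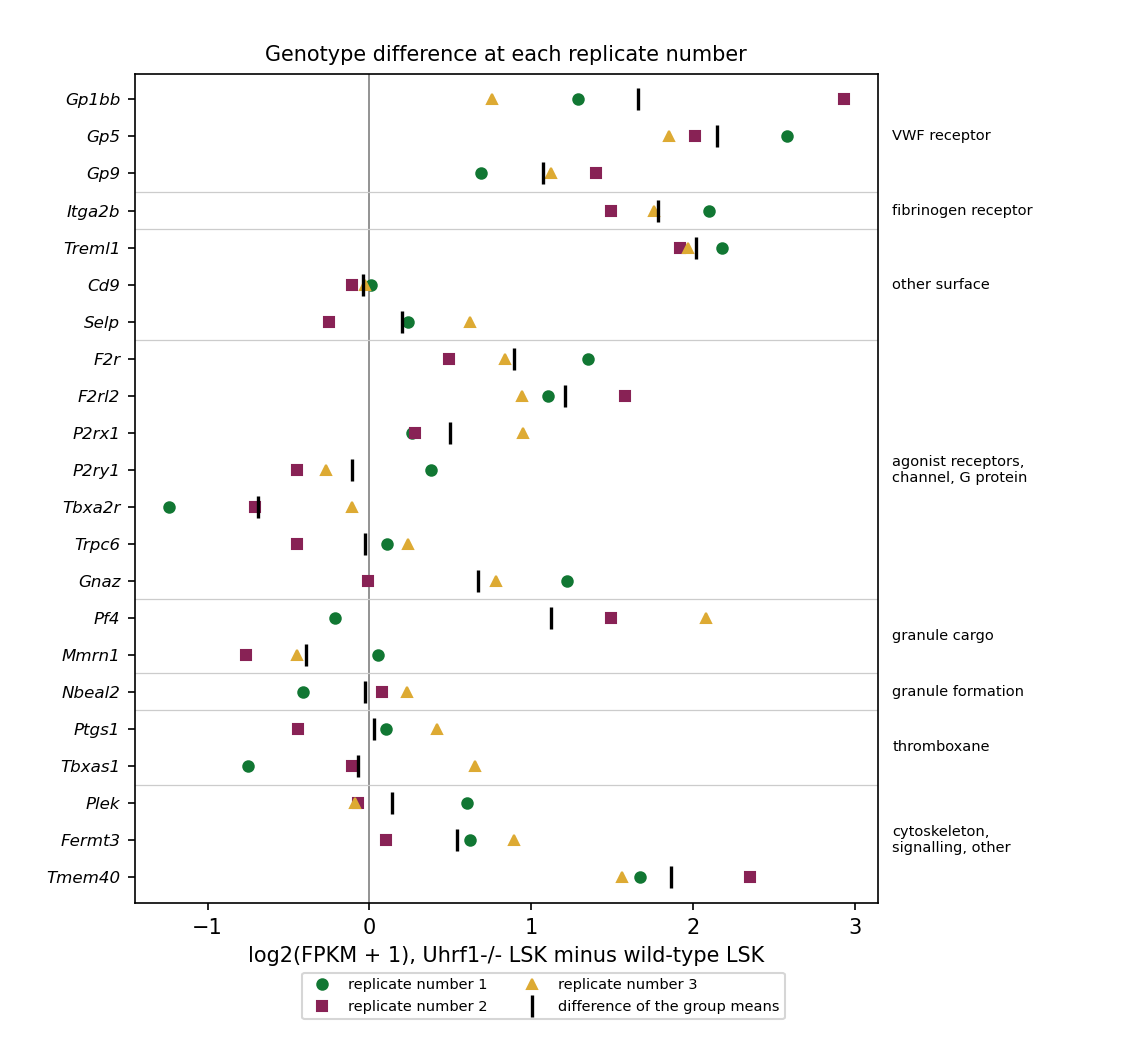
Difference between Uhrf1-/- and wild-type LSK libraries of the same replicate number, in log2(FPKM + 1), for the 22 tested platelet genes. Each symbol is 1 replicate number and the black bar is the difference of the group means. Treml1 lies between 1.92 and 2.18, Cd9 between -0.11 and 0.01, and Pf4 between -0.21 and 2.08.

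The upstream sequences of Gp5, Gp9, Itga2b and Treml1 are shown as examples of receptor genes called higher in Uhrf1-/- LSK cells in the blocked FPKM fit. Without the block only Itga2b and Treml1 of these were called on FPKM. The sequences are the 250 bases before the RefSeq transcript start (build GRCm38.p6), read 5′ to 3′ on the strand of the gene. Capitals mark 6-letter matches, on either strand, to a GATA motif (spelled AGATAA, with variants spelled AGATAG, then TGATAA, then TGATAG), to an ETS motif (spelled AGGAAG, otherwise CGGAAG) or to a RUNX motif (spelled TGTGGT, otherwise TGCGGT). The windows are chr16:30310782-30311031 (minus strand) for Gp5, chr6:87777820-87778069 (plus strand) for Gp9, chr11:102469884-102470133 (minus strand) for Itga2b and chr17:48359666-48359915 (plus strand) for Treml1. The Gp9 window lies inside the span RefSeq gives the gene, upstream of one of its starts, and the Itga2b window overlaps the first exon of a noncoding Itga2b transcript in the GENCODE annotation. No GENCODE exon overlaps the other windows or that of Gp9.
Gp5: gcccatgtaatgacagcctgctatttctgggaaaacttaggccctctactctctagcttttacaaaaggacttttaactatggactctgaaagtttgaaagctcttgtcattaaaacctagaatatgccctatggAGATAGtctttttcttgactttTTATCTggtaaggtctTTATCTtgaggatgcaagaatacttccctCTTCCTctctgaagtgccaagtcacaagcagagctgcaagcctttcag
Gp9: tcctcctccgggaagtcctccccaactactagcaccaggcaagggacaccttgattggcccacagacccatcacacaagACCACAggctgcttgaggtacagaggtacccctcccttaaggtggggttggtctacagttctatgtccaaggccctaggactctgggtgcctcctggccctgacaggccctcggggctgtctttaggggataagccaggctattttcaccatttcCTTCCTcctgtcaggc
Itga2b: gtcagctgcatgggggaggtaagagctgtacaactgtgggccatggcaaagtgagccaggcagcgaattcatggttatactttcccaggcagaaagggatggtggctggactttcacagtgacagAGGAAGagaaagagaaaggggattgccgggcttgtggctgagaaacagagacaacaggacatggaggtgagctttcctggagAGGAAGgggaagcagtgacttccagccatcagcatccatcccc
Treml1: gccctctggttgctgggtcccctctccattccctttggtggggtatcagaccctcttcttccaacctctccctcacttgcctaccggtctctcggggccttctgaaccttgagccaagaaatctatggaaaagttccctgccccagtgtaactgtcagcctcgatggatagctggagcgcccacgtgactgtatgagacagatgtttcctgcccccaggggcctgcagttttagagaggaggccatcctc

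The Gp5 sequence holds 3 GATA matches and 1 ETS match, the Gp9 sequence 1 ETS and 1 RUNX match, the Itga2b sequence 2 ETS matches, and the Treml1 sequence none of the 3 motifs. The table of promoter windows, each with 250 bases before and 50 after a start, matched 27 of the 33 genes with 29 windows. A GATA match was in 11 of these 29 windows (29.8% of all 32851 windows hold one), an ETS match in 17 (46.5% of all) and a RUNX match in 4 (22.4% of all). Among windows of tested members the shares were 34.8% for GATA, 60.9% for ETS and 17.4% for RUNX. Among windows of all tested genes they were 18.4%, 56.1% and 21.2%, so the ETS share was close to that of tested genes. A match is a run of letters and does not show binding. CpG dinucleotides, the sites of the methylation that Uhrf1 maintains, were few in these windows. The 23 windows of tested members held a median of 5 CpG, and the 10813 windows of all tested genes held a median of 21. At least 10 CpG were found in 21.7% of the windows of tested members and in 80.6% of those of all tested genes. The gap was smaller with untested genes included. The 29 member windows held a median of 4 CpG, with at least 10 in 17.2%, and all 32851 windows a median of 7, with at least 10 in 43.5%. Gp5 had 0 CpG, Gp9 3, Treml1 5 and Itga2b 6, while F2r (28), P2ry1 (25), Cd9 (18), Nbeal2 (18) and Trpc6 (17) were the members with the most. Members that were not called had few as well, such as Mmrn1 (3), Fermt3 (3), Plek (4), Selp (4) and Tbxas1 (4). F2r was itself higher in every Uhrf1-/- LSK library than in any wild-type one on FPKM. DNA methylation was not measured in these libraries.

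**Figure D3:**
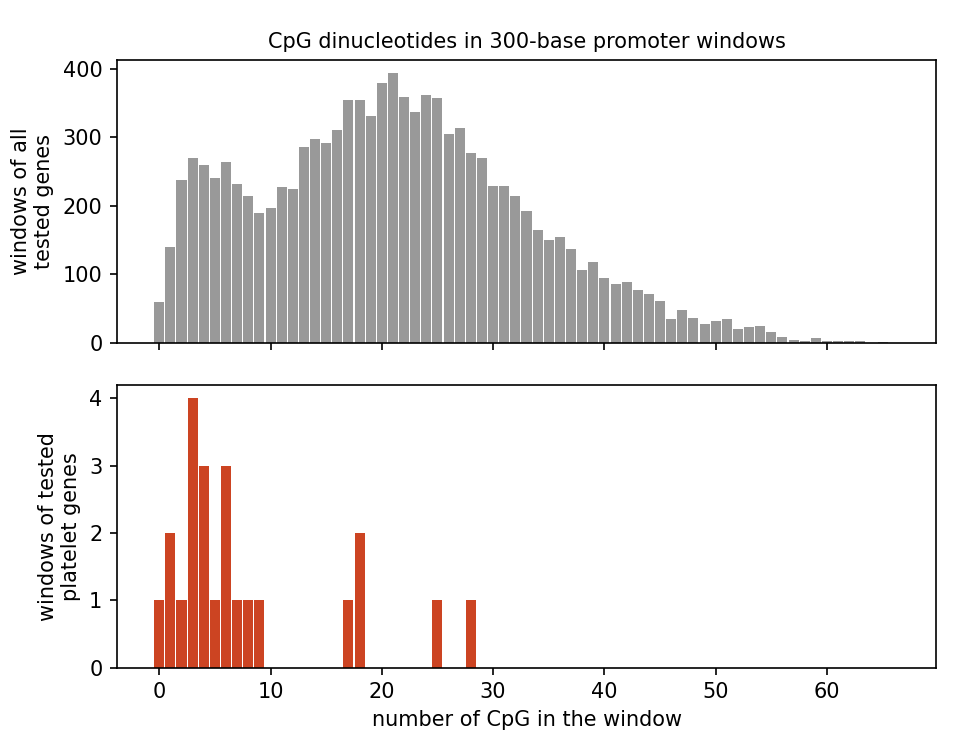
Number of CpG dinucleotides in 300-base promoter windows, for all tested genes (upper panel, 10813 windows) and for tested platelet genes (lower panel, 23 windows). Each bar counts windows with that number of CpG. The windows of platelet genes gather at low numbers, with a median of 5 against 21. Over all 32851 promoter windows, tested or not, the median was 7.

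Receptors for soluble agonists were mixed. F2rl2 (Entrez 14064, chr13:95696920-95702768) encodes the thrombin cofactor receptor PAR3 of mouse platelets. It stood at 0.499, 0.740 and 0.558 FPKM across wild-type LSK libraries, against 2.22, 4.21 and 1.98 FPKM across the Uhrf1-/- ones, with no overlap (log2 difference 1.21, SE 0.27, limma adjusted p = 0.158, blocked 0.0069). F2r, the gene of the thrombin receptor PAR1, which mouse platelets are known to lack but progenitors and endothelium carry, was 4.07, 10.9 and 5.91 FPKM across wild-type LSK libraries, against 11.9, 15.7 and 11.4 FPKM across the Uhrf1-/- ones. The groups were separate, and the difference of 0.89 did not pass (SE 0.34, limma adjusted p = 0.718, blocked 0.080). F2r was called higher by the blocked fit of the count values (adjusted p = 0.0274).

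The nucleotide receptors did not move together. P2rx1, the ATP-gated channel of platelets, was the highest of them, at 19.8 to 25.1 FPKM across wild-type LSK libraries, against 27.8 to 39.3 FPKM across the Uhrf1-/- ones. The P2rx1 groups were separate on FPKM but not called (limma adjusted p = 0.942, blocked 0.432), and they overlapped on the count values scaled to equal library totals. P2ry1, an ADP receptor, was between 0.707 and 1.73 FPKM in the LSK libraries, with overlapping groups. P2ry12, the other ADP receptor and the target of clopidogrel, was the 1 member of the agonist group with all Uhrf1-/- values below all wild-type values. It stood at 0.308, 1.37 and 1.05 FPKM across wild-type LSK libraries, against 0.0284, 0.125 and 0.0119 FPKM across the Uhrf1-/- ones, under the minimum for testing. On the count values it reached the minimum and was called lower in the blocked fit only (log2 difference -1.79, adjusted p = 0.131, blocked 0.00296). Macrophages also carry P2ry12. The 8 macrophage markers examined summed to 159.0, 87.8 and 15.4 FPKM across wild-type LSK libraries, against 51.0, 49.1 and 14.8 FPKM across the Uhrf1-/- ones. In wild-type replicate 3, C1qc and Marco were at 0 and Cd68, at 14.1 FPKM, made up most of the sum. The part of macrophage transcripts in the P2ry12 values was not tested.

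Tbxa2r, the thromboxane receptor, was 52.3, 34.0 and 19.0 FPKM across wild-type LSK libraries, against 21.5, 20.5 and 17.5 FPKM across the Uhrf1-/- ones. It was lower at every replicate number, by 1.24, 0.71 and 0.11 on the log2 scale, and the ranges overlapped (limma adjusted p = 0.942, blocked 0.249). Gnaz, the platelet G protein that acts below adrenergic receptors, stood at 1.69, 3.07 and 1.15 FPKM across wild-type LSK libraries, against 5.28, 3.06 and 2.70 FPKM across the Uhrf1-/- ones and was not called (limma adjusted p = 0.928, blocked 0.266). Trpc6, a cation channel, was between 1.08 and 2.35 FPKM in all 6 LSK libraries.

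Granule cargo was detected unevenly. Pf4, the platelet chemokine CXCL4, stood at 41.0, 11.9 and 5.13 FPKM across wild-type LSK libraries, against 35.3, 35.5 and 24.9 FPKM across the Uhrf1-/- ones. Wild-type replicate 1 was the highest of all libraries, so the groups overlapped, and the difference of 1.12 had an SE of 0.63 (limma adjusted p = 0.942, blocked 0.305). The value rested on single libraries. In the blocked fit the log2 difference of Pf4 was 1.79 without pair 1 (limma adjusted p = 2.6e-06), 0.94 without pair 2 (0.80) and 0.64 without pair 3 (0.85). As for Gp1bb, p-values with a pair left out rest mainly on borrowed variance. Without the block the log2 difference of Pf4 was 1.87 when wild-type replicate 1 was left out and 0.48 when wild-type replicate 3 was, neither called. In wild type the macrophage marker sum was also highest in replicate 1, at 159.0 FPKM, and lowest in replicate 3, at 15.4 FPKM, and its part in the spread of Pf4 was not tested.

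Mmrn1, the gene of the factor V binding protein multimerin, was 6.77, 14.2 and 9.42 FPKM across wild-type LSK libraries, against 7.03, 7.98 and 6.65 FPKM across the Uhrf1-/- ones, with overlap (limma adjusted p = 0.942, blocked 0.574). Ppbp, the other abundant chemokine of mature platelets, did not exceed 0.666 FPKM, in contrast to its neighbour Pf4 on chromosome 5. Vwf, the ligand of the GPIb complex and a marker of platelet-biased stem cells, lay between 0.482 and 1.17 FPKM in the LSK libraries. Thbs1, the gene of thrombospondin, did not exceed 0.302 FPKM there. Nbeal2, needed for alpha granules, was between 7.22 and 13.6 FPKM in the LSK libraries with no difference beyond the spread, and Rab27b, which acts in dense granules, was below the minimum at 0.217 to 0.721 FPKM.

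The enzymes of thromboxane synthesis showed no difference beyond the spread between libraries. Ptgs1, the gene of cyclooxygenase-1, stood at 30.7 ± 6.54 FPKM across wild-type LSK libraries, against 31.5 ± 8.02 FPKM across the Uhrf1-/- ones (SD, n = 3 each), and the log2 difference of 0.03 had an SE of 0.28. Tbxas1, the gene of thromboxane synthase, stood at 5.96 ± 1.98 and 5.62 ± 1.77 FPKM (SD, n = 3 each; log2 difference -0.07, SE 0.33). With these errors, moderate changes in either direction were not detectable.

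Among cytoskeletal and signalling genes, Fermt3 had the highest level of all 33. It encodes kindlin-3, which activates integrins in all blood cells, and stood at 133.8, 182.5 and 113.3 FPKM across wild-type LSK libraries, against 206.9, 195.4 and 210.2 FPKM across the Uhrf1-/- ones. The groups were separate by a narrow margin on FPKM and overlapped on the count values scaled to equal library totals. Fermt3 was not called (log2 difference 0.54, SE 0.30, limma adjusted p = 0.942, blocked 0.520). Plek, the gene of pleckstrin, was between 5.60 and 10.9 FPKM in the LSK libraries. Exons of Fermt3 overlap those of Trpt1, and exons of Plek those of Cnrip1, on the opposite strand, so reads may be shared where strand was not used. Tubb1, the tubulin of mature megakaryocytes and platelets, did not exceed 0.377 FPKM in any of the 7 libraries. Transcripts of mature megakaryocytes and platelets thus lay far apart: Tubb1, Ppbp, Gp6 and Clec1b were at or near 0 in both genotypes, while over the LSK libraries Gp9 ranged from 30.1 to 93.6 FPKM, Pf4 from 5.13 to 41.0 FPKM and Treml1 from 3.43 to 22.5 FPKM.

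The LK library gave a different profile. With 1 library there is no replicate check and no test, and its values are set against the range of the LSK libraries. It was the lowest of all 7 libraries for 13 of the 22 tested members (25.7% of all tested genes) and the highest for 0 (28.2% of all). The 22 were kept by their mean over the LSK libraries, so a gene high in LK alone could not be among them. Gp1ba, at 1.65 FPKM in LK, and Thbs1, at 0.360 FPKM, were highest there and were left out by this filter. Over genes that averaged 1 FPKM or more in wild-type LSK and LK, 11 of 20 members were below the wild-type LSK range and at least 1 log2 unit lower in LK, where 12.5% of all genes were. Gp5 alone was above the wild-type LSK range by that margin, 1 of 20 where 9.00% of all genes were. The mean was over 3 wild-type LSK libraries and 1 LK library, so genes near 0 in LK could enter through LSK alone. Of the 11, Tbxa2r, Tbxas1, Pf4, Selp, Trpc6 and Gnaz were under 1 FPKM in LK.

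The members low in LK were mainly signalling receptors, granule proteins and enzymes. Tbxa2r stood at 0.778 FPKM in LK and at 19.0 to 52.3 FPKM in wild-type LSK libraries. Tbxas1 stood at 0.0497 FPKM against 3.72 to 7.46 FPKM, and Pf4 at 0.994 FPKM against 5.13 to 41.0 FPKM. Gp9, P2rx1, Mmrn1, Nbeal2, Ptgs1, Selp, Trpc6 and Gnaz completed the 11. Endothelial markers, which stem cells partly share, had a low sum there as well. The 7 examined summed to 34.5 to 51.0 FPKM in wild-type LSK, 39.8 to 45.3 FPKM in Uhrf1-/- LSK and 3.57 FPKM in LK. Tie1, Emcn and Tek made up most of the sum. Kdr, Stab2 and Lyve1 did not exceed 0.290 FPKM in any of the 7 libraries, so they add little to the difference.

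The 6 members called higher in Uhrf1-/- LSK cells, Gp5, Gp9 and F2rl2 with the block only, were also set against LK. They were picked in part by their wild-type LSK values, so their place against that range is description only. Itga2b stood at 8.90 FPKM in LK, between the wild-type and Uhrf1-/- LSK ranges, and so did Gp5 at 2.60 FPKM. Treml1 at 3.93 FPKM and F2rl2 at 0.595 FPKM lay within the wild-type LSK range, and Tmem40 at 17.1 FPKM lay just above it. F2r at 12.9 FPKM lay within the Uhrf1-/- range. Gp9, at 8.11 FPKM in LK, was below every LSK library. Set against Uhrf1-/- LSK cells, 17 of 23 members were below the range and at least 1 log2 unit lower in LK (13.7% of all genes) and 0 were above it (11.9% of all). Both comparisons use the same LK library, and in both a gene near 0 in LK could enter through its LSK values.

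Other genes of the megakaryocyte and platelet pathway were taken from a list of 72, of which 63 were tested. Of these, 1 was called higher and 0 lower, and in the blocked fit 4 were higher and 2 lower. Their median log2 difference was -0.02, and 31 of the 63 were positive, where 46.1% of all tested genes were. Limma gave 12 of the 63 an unadjusted p under 0.05 without the block and 18 with it, against 591 and 1278 of all 10608 genes. The shares of all genes called were 0.113% higher and 0.0566% lower, and 1.23% and 0.830% with the block.

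Among 13 regulators, the transcription factors and cofactors of the lineage with the thrombopoietin receptor, all calls were upward. Gata1, required for megakaryocyte and red cell maturation, stood at 8.01, 9.18 and 2.09 FPKM across wild-type LSK libraries, against 54.3, 55.5 and 68.3 FPKM across the Uhrf1-/- ones (log2 difference 3.19, limma adjusted p = 0.021, blocked 0.0022). Its cofactor Zfpm1 and the repressor Gfi1b were called higher only with the block (blocked adjusted p = 0.00090 and 0.010). Zfpm1 differed widely by replicate number, at 48.6, 22.8 and 4.49 FPKM across wild-type LSK libraries, against 102.8, 83.3 and 19.9 FPKM across the Uhrf1-/- ones.

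Tuba8, an alpha tubulin, was 11.7, 8.71 and 8.21 FPKM across wild-type LSK libraries, against 35.9, 32.6 and 19.8 FPKM across the Uhrf1-/- ones, without overlap (limma adjusted p = 0.097, blocked 0.0015). Slc35d3, a transporter gene needed for platelet dense granules, went the other way, at 12.8, 18.9 and 13.3 FPKM against 5.86, 7.23 and 2.32 FPKM (limma adjusted p = 0.189, blocked 0.0033). Tpm4, a tropomyosin, was also lower with the block (limma adjusted p = 0.425, blocked 0.032). Of 11 tested genes that signal below the collagen and podoplanin receptors, 10 had a negative log2 difference, as 5714 of all 10608 genes did, and none was called in either fit, with 0 at an unadjusted limma p under 0.05 without the block and 2 with it. Of 7 tested genes of integrin activation, none was called, and 0 had an unadjusted limma p under 0.05 in either fit. Of 10 tested genes of G proteins and second messengers, none was called in either fit, with 2 at an unadjusted limma p under 0.05 in each.

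Markers of other cells were examined beside these results. The mast cell gene Cpa3 was called higher, from 3.61, 4.13 and 9.77 FPKM in wild type to 42.3, 55.3 and 41.7 FPKM across the Uhrf1-/- ones (limma adjusted p = 0.018), with 49.3 FPKM in LK. Of the other mast cell genes, Ms4a2 was below the minimum, at 0.0114 to 0.0470 FPKM in wild-type and 0.841 to 1.17 FPKM in Uhrf1-/- LSK, and Tpsb2 was at 0 in every library. The 5 mast cell genes summed to 4.03 to 10.2 FPKM in wild-type LSK, to 43.8 to 57.2 FPKM in Uhrf1-/- LSK and to 53.7 FPKM in LK. Cpa3 made up most of each sum. The red cell markers found in the table summed to 82.4, 6.92 and 5.05 FPKM in wild type, to 5.46, 30.7 and 12.5 FPKM in Uhrf1-/- LSK and to 686.7 FPKM in LK. Hepatoblast markers summed to 23.7 to 38.5 FPKM and stromal markers to 1.94 to 3.19 FPKM over all libraries, with overlapping genotypes. Trf made up most of the hepatoblast sum in each LSK library, and Pdgfrb most of each stromal sum. Alb, Apoa1, Apoa2 and Serpina1a were highest in LK, with Apoa2 at 13.8 FPKM there and 1.20 to 5.31 FPKM in LSK libraries. Trf was lowest in LK, and Afp and Ttr lay within the LSK range. The part of these markers in the platelet gene differences was not tested.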

How the data were processed

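RNA was measured in 7 libraries, grouped and numbered by their titles. The deposited table gives each gene an FPKM value per library, made by the authors, and a second value whose header says count, used here as a scaled count signal because the deposited values are not whole. Between 98.2% and 98.6% of its values under 100 steps lie within 0.02 of a whole multiple of a library's step. A count model was not run, since the smallest values are fractional. TopHat2 2.0.9, Cufflinks 2.1.1 and mm10 appear in the submitters' processing notes, which give them no role. No label or header states the annotation, strand setting or counting options, so overlapping genes may share reads. All 33 genes were found by symbol, and coordinates and promoter sequences are RefSeq's for GRCm38.p6.

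The genotype test was limma (version 3.58.1, under R 4.3.3) with trend and robust moderation, two-sided, run on log2 of FPKM plus 1. Its p-values were Benjamini-Hochberg adjusted, at 0.05, over the 10608 genes whose LSK libraries averaged 1 FPKM or more. Same-numbered libraries deviated together from their group means (r = 0.349, 0.332 and 0.645, and -0.591 to 0.213 for unlike numbers), so the numbers were read as pairs and a blocked fit was run. No label says what a number shares: the pairing is read from these values. The scripts were tested on simulated data. The members, lists and tests were chosen with earlier results of these data known. All members are named: those called in either fit, or with separate groups and a log2 difference of at least 1, with their value in each library, and the others by role with their range. Pathway genes are named where called in either fit. Alternatives were another unit, scaling, pseudocount (0.1) and filter, the block, all 7 libraries in the fit, and leaving out libraries or pairs. Blocked fits on other scalings, and leaving out both libraries of number 3, were chosen after seeing the data.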

Additional observations from a re-analysis of the deposited data

How the results depend on the processing

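Without the replicate block, limma called 3 members higher and 0 lower, and 12 of all tested genes higher and 6 lower. Members called higher numbered 4 on the count signal scaled to equal totals, 0 with no filter on low values (10 at an unadjusted p under 0.05) and 0 when any 1 library was left out (6 to 9 at an unadjusted p under 0.05). With the replicate block they numbered 6, and 8, 3 and 6 without pair 1, 2 or 3. With a pair left out, the blocked p-values rest mainly on the variance limma borrows from all genes. Chosen after seeing the data, the replicate block on the count signal called 7 members higher and 1 lower (P2ry12), the block on FPKM with median-of-ratios scaling called 6 higher, and leaving out both libraries of number 3 without the block called 0. For all genes, the counts higher and lower were 21 and 15 on the count signal, 0 and 0 with no filter or without number 3, 131 and 88 with the block, 117 and 121 with the block on the count signal, and 119 and 67 with the block and median-of-ratios scaling. Leaving out 1 library gave 0 to 3 higher and 0 to 1 lower, and the blocked fit gave 338 and 318 without pair 1, 13 and 8 without pair 2, and 117 and 84 without pair 3. The causes of these differences were not tested. On FPKM the block changed the calls of Gp5, Gp9 and F2rl2 and of no other member. On the count signal it changed those of Gp1bb, F2r, F2rl2 and P2ry12.

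Members above the wild-type LSK range in LK numbered 0 with median-of-ratios scaling and 2 with a pseudocount of 0.1 (Gp5 and F2r), and those below it 11 to 12 under every alternative run. The median log2 difference of the tested members was 0.20 to 0.68 over the alternatives run.

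The sign turned for 8 members whose differences were small. With median-of-ratios scaling of FPKM the log2 difference was 0.01 for Cd9, 0.01 for Trpc6 and 0.02 for Nbeal2, with or without the replicate block, and on the count signal with that scaling 0.08 for Cd9 and 0.02 for Trpc6. On the count signal scaled to equal totals it was -0.03 for Ptgs1, with or without the block. In the blocked fit without pair 1 it was 0.16 for Nbeal2, -0.01 for Ptgs1, 0.27 for Tbxas1 and -0.08 for Plek; without pair 2, 0.05 for P2ry1 and 0.18 for Trpc6; without pair 3, -0.01 for Selp and -0.17 for Ptgs1, the same values as without the block.
Leaving out 1 library at a time gave -0.33 to 0.27 for Cd9, -0.24 to 0.05 for P2ry1, -0.21 to 0.14 for Trpc6, -0.25 to 0.13 for Nbeal2, -0.17 to 0.18 for Ptgs1, -0.33 to 0.18 for Tbxas1 and -0.12 to 0.31 for Plek.

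Low levels limit what can be said of the 11 members with a mean of at most 0.753 FPKM, which were not tested on FPKM, and with 3 libraries per genotype a difference the size of the spread between libraries was not detectable.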
